A study of Homo sapiens with 32 samples.

Results

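Iron storage, uptake and their post-transcriptional control were followed through 10 genes in polysomal RNA-Seq of MCF10A and MDA-MB-231 cells. The genes were the ferritin subunits FTH1 and FTL, the ferritin receptor NCOA4, the iron importers TFRC and SLC11A2, the exporter SLC40A1, the regulators ACO1, IREB2 and FBXL5, and the haem-degrading enzyme HMOX1. They were taken by symbol among the 19815 protein-coding genes of the count files, and all 10 were found in both lines. MCF10A is a non-tumorigenic, immortalised line of breast epithelium. MDA-MB-231 derives from a triple-negative breast carcinoma. The N group was kept in normoxia and the H group in 0.5% O2 for 24 hours. The NPP and HPP groups were the same with PP242, an inhibitor of both mTOR complexes, at 2.5 µM for 3 hours, and control cells received the DMSO vehicle. Total (T) and polysomal (P) mRNA gave 8 groups per line, with 2 biological replicates each and 32 libraries in all. The P fraction held polysomes, which the paper separates from free mRNA, monosomes and oligosomes. Its discussion describes this fraction as both light and heavy polysomes, from 2 ribosomes upward. Each library held 18340916 to 46032327 counts.

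Iron that enters a cell is used in haem and iron-sulphur clusters, stored in ferritin or exported. When iron is scarce, the iron regulatory proteins encoded by ACO1 and IREB2 bind a hairpin called the iron-responsive element (IRE). An IRE in the 5′ untranslated region (UTR), as in ferritin and ferroportin mRNAs, lets the bound protein hold back translation, and IREs in the 3′ UTR of TFRC mRNA protect it from decay. FBXL5 targets IREB2 protein for degradation when iron and oxygen are present, and NCOA4 carries ferritin to the lysosome. Polysome profiling therefore reads a step at which this family is known to be controlled.

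The hairpins are shown because they divide the members. Reference transcripts (GENCODE, GRCh38) were searched on the coding strand for a 27-nucleotide element with a bulged C, 5 paired bases, the loop CAGTGN and at least 3 of 5 pairs below the bulge. Capitals mark the loop, and T stands for U. FTH1, FTL and SLC40A1 had a match in the 5′ UTR, at chr11:61967575-61967601 on the minus strand, chr19:48965336-48965362 on the plus strand and chr2:189580662-189580688 on the minus strand.
FTH1: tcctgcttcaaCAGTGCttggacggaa
FTL: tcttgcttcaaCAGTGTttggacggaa
SLC40A1: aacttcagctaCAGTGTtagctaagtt
The ferritin elements start 33 and 27 nucleotides after the first base of the transcript and that of SLC40A1 98 after it. TFRC had 4 matches in its 3′ UTR, all on the minus strand, at chr3:196050464-196050490, chr3:196050511-196050537, chr3:196050576-196050602 and chr3:196050980-196051006.
TFRC a: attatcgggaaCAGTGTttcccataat
TFRC b: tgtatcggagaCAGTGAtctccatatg
TFRC c: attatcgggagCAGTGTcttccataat
TFRC d: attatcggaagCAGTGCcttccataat
Of 20046 reference transcripts, 1 per gene, 9 had a match in the 5′ UTR (0.0449%) and 31 in the 3′ UTR (0.1546%). No match was found in SLC11A2, NCOA4, ACO1, IREB2, FBXL5 or HMOX1, which says only that these letters are not there. Other known IREs, such as the one of SLC11A2, have another shape.

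The labels and the libraries were checked first. CA9, a target of HIF1α, rose under H in T by a log2 fold change of 5.95 ± 0.48 (SE, n = 2 per group) in MCF10A, and by 5.46 ± 0.67 in the other line. The ribosomal protein mRNA RPL11, which needs mTOR for translation, changed in P under NPP by −1.83 ± 0.53 in MCF10A (adjusted p = 0.134) and fell by 1.30 ± 0.20 in MDA-MB-231 (adjusted p = 0.00243). The basal keratin KRT5 lay at 1190 to 3268 CPM (counts scaled to library size by TMM) in MCF10A, and VIM at 3113 to 6082 CPM in MDA-MB-231. VIM was also high in MCF10A, at 1691 to 9370 CPM, and the basal marker LAMB3 lay at 224 to 557 CPM in MDA-MB-231. A median of at least 1 CPM was reached by 4 of 6 basal markers in MCF10A and 2 of 6 in the other line. Of 5 mesenchymal markers, 5 reached it in MCF10A but only 3 in MDA-MB-231. HBB, a red cell marker, did not pass 0.947 CPM in any library. The leukocyte marker CD14 reached 11.9 CPM and the fibroblast marker COL1A1 19.2 CPM, both in MCF10A.

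Some MCF10A libraries stood apart. The median log2 deviation of the shortest quartile of mRNAs minus that of the longest, each gene taken against its mean over the line, was 1.18 in the second NPP T library, 0.63 in the second HPP T library and 0.87 in the first N P library. It was −0.62 in the first H T library. In MDA-MB-231 it stayed between −0.22 and 0.31. FTH1 and FTL are short mRNAs, of 1203 and 871 nucleotides, and the 2 T libraries with the most short mRNAs were also the 2 highest in FTH1. Values below are not corrected for this imbalance, except where a length offset is named, and its part in other MCF10A values was not tested.

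**Figure D1:**
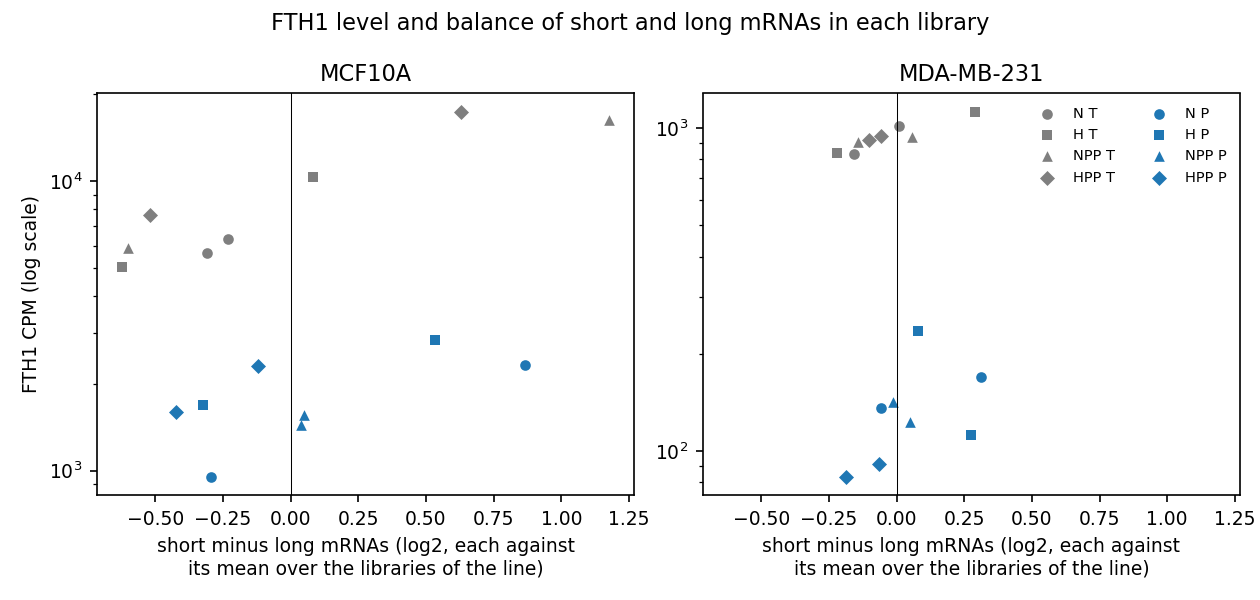
Each point is a library; the x axis gives the log2 excess of short over long mRNAs against the mean of the line, and the y axis FTH1 CPM on a log scale, with T in grey and P in blue. In MCF10A the second NPP T library, at 1.18, and the second HPP T library, at 0.63, hold the highest FTH1, while MDA-MB-231 libraries span −0.22 to 0.31.

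The ferritin mRNAs were among the mRNAs least represented in polysomes in both lines. FTH1, the heavy chain with ferroxidase activity, had 5651 and 6335 CPM in normoxic T of MCF10A and 2326 and 950.3 CPM in P. In MDA-MB-231 it had 830.6 and 1013 CPM in T and 169.9 and 136.1 CPM in P. P lay below T without overlap in both lines. In bulk RNA, less mRNA per cell and fewer cells with the mRNA cannot be told apart. FTL, the light chain, had 487.1 and 696.0 CPM in T and 232.6 and 105.4 CPM in P of MCF10A, and 1406 and 2177 against 246.2 and 211.4 CPM in MDA-MB-231. SLC40A1, the only known iron exporter, had 2.08 and 2.50 CPM in T and 0.70 and 0.71 CPM in P of MDA-MB-231. These SLC40A1 levels rest on 58 and 44 counts in T and on 16 and 22 in P.

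In MDA-MB-231, P differed from T in normoxia by a log2 ratio of −2.59 ± 0.27 for FTH1 (adjusted p = 0.000126), −2.97 ± 0.33 for FTL (adjusted p = 0.000138) and −1.69 ± 0.35 for SLC40A1 (adjusted p = 0.008), by edgeR's quasi-likelihood test over all genes. These 3 mRNAs, which are the members with a hairpin in the 5′ UTR, were the 3 of 10 members called, all lower in P. With a replicate block or a culture block HMOX1 was called as well, higher in P (0.55, adjusted p = 0.0229 and 0.0427). Of all genes tested, 13.1% were called and 8.64% were called lower in P. The ratio is relative to the average mRNA, since scaling removes any shift common to all. SLC40A1 missed the threshold without the second normoxic T library (−1.56, adjusted p = 0.051), and FTH1 and FTL stayed called without any 1 library.

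In MCF10A the normoxic log2 ratios were −1.87 ± 0.62 for FTH1 and −1.81 ± 0.63 for FTL, and neither passed (adjusted p = 0.334 for both). No gene did in this line (0%), although 1660 genes (12.6%), FTH1 and FTL among them, had an unadjusted p under 0.05, and DESeq2 called no member. With an offset for transcript length in each library the ratios were −2.28 and −2.19 (adjusted p = 0.00725 for both), where 3% of genes were called. Averaged over the 4 conditions they were −2.31 and −2.39 (adjusted p = 0.00128 and 0.00125), where 20.3% were. In MDA-MB-231 the average gave −2.83 for FTH1, −3.28 for FTL and −1.69 for SLC40A1, and HMOX1 was also called, at 0.50 (adjusted p = 0.00484), where 41.3% of genes were called. The difference between the lines in the normoxic ratio was −0.55 ± 0.68 for FTH1 and −0.99 ± 0.73 for FTL (adjusted p = 1 for both, 0.00699% of genes called), so the data do not separate the lines here.

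The ratio of P to T could be read in each of 8 cultures per line, taking the libraries with the same number as 1 culture. FTH1 ran from 0.0877 to 0.209 in MDA-MB-231, with a median of 0.134, and from 0.0916 to 0.559 in MCF10A, with a median of 0.203. FTL ran from 0.0697 to 0.175 (median 0.101) and from 0.0709 to 0.580 (median 0.191). SLC40A1 ran from 0.252 to 0.367 in MDA-MB-231. All 3 were below 1 in 8 of 8 cultures. By the mean log2 ratio over cultures FTL was number 3 from the lowest of 13510 genes in MDA-MB-231, after MT-CO2 and MT-CO3, which are translated inside mitochondria. FTH1 was number 11 and SLC40A1 number 196 there. In MCF10A FTL was number 24 and FTH1 number 34 of 13124.

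Within MCF10A the ratios of several members split by replicate number. FTH1 had 0.244 to 0.559 in the first cultures and 0.0916 to 0.163 in the second, without overlap. FTL split likewise, with 0.216 to 0.580 and 0.0709 to 0.166. HMOX1 was also higher in the first cultures (1.66 to 2.26 against 1.06 to 1.36), while IREB2 (0.560 to 0.763 against 1.25 to 3.94) and SLC11A2 (0.631 to 0.992 against 1.05 to 1.52) were lower in them. In MDA-MB-231 the 2 sets overlapped for both ferritin genes, and IREB2 split there as well, in the same direction (0.789 to 1.01 against 1.05 to 1.28). In MCF10A the balance of short and long mRNAs in P minus that in T moved with the same split. It was above 0 in all 4 first cultures (0.40 to 1.18) and below 0 in all 4 second cultures (−0.059 to −1.13). In MDA-MB-231 it ran from −0.13 to 0.50 in the first cultures and from −0.21 to 0.037 in the second. The part of this balance in the splits was not tested. Genes with a coding length over 500 to 600 nucleotides, which holds FTH1 (549) and FTL (525), had a median mean log2 ratio of 0.057 in MDA-MB-231 (n = 550) and of −0.00085 in MCF10A (n = 553), with quartiles of −0.27 and 0.32 and of −0.36 and 0.38.

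**Figure D2:**
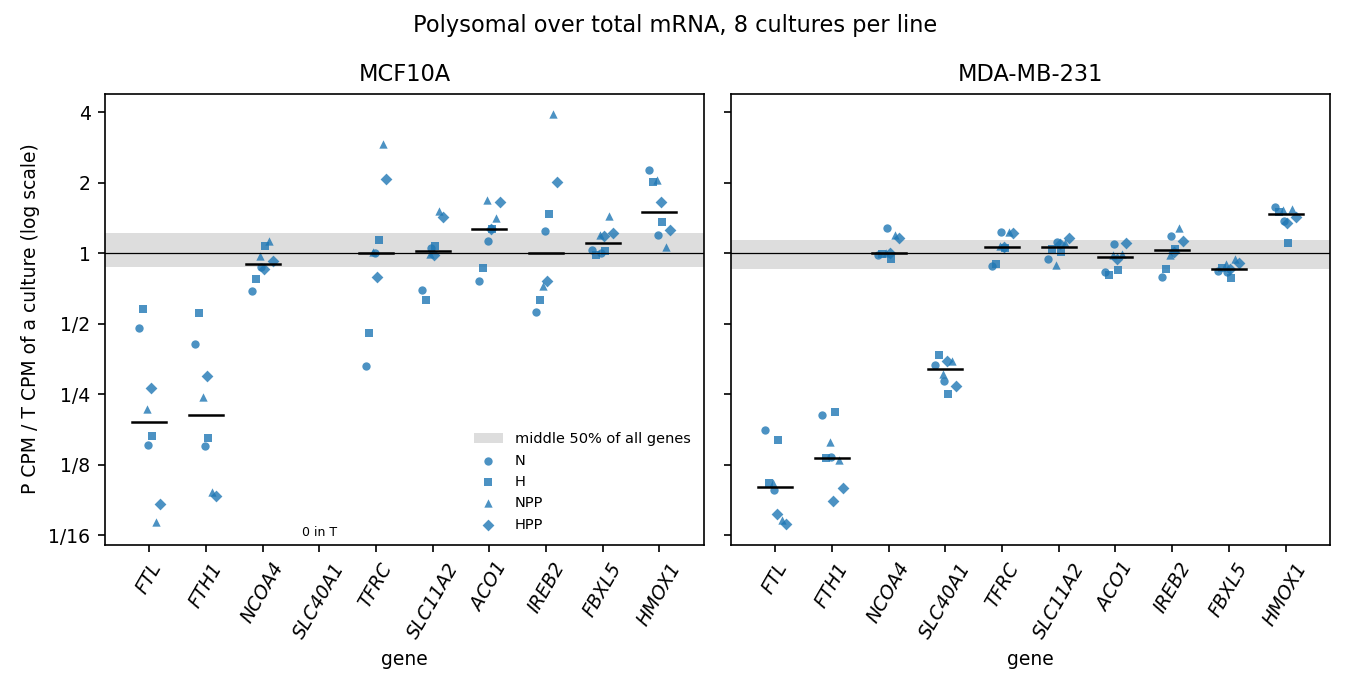
Each point is the ratio of P CPM to T CPM in 1 culture on a log scale, the bars are medians over the 8 cultures of a line, symbols give the condition, and the grey band holds the middle 50% of all genes by their mean ratio. FTH1 and FTL lie at or below 0.580 in every culture and SLC40A1, which was at 0 in T of MCF10A, between 0.252 and 0.367 in MDA-MB-231, while the medians of the other members lie around 1, with a wide spread for TFRC and IREB2 in MCF10A, and HMOX1 lies above it.

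The median ratios of the other members, apart from HMOX1, lay between 0.860 and 1.27. TFRC had 0.882 to 1.24 in MDA-MB-231 and 0.330 to 2.94 in MCF10A, where its highest value came from the second NPP culture, whose T library was the one richest in short mRNAs. IREB2, a long mRNA of 6324 nucleotides, had its highest ratio in the same culture, at 3.94. NCOA4 had medians of 1.00 and 0.899 in MDA-MB-231 and MCF10A, and SLC11A2 of 1.07 and 1.02. FBXL5 was below 1 in 8 of 8 cultures of MDA-MB-231 (0.783 to 0.943) and in 1 of 8 of MCF10A. HMOX1 was above 1 in 8 of 8 cultures of both lines, at 1.06 to 2.26 in MCF10A and 1.11 to 1.57 in MDA-MB-231, and was not called in normoxia without a block (0.84 ± 0.50, adjusted p = 0.51, and 0.55 ± 0.25, adjusted p = 0.159).

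Of the 6 other genes with a matching hairpin in the 5′ UTR, the 3 measured did not share the low ratio, and ALAS2, NWD2 and PRAMEF9 did not pass the filter on low counts. Mean log2 ratios were −0.23 for ENC1 and 0.51 for PRPF18 in MCF10A. The MDA-MB-231 values were −0.093 for ENC1, 0.27 for PRPF18 and 0.28 for ADGRD1. These genes were found by letters alone, and whether an iron regulatory protein binds them was not tested. Over the other genes with a match in the 3′ UTR, the median was 0.13 in MCF10A (n = 26) and 0.039 in MDA-MB-231 (n = 28).

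The ferritin calls under treatment lay in polysomes of MDA-MB-231. Under HPP, FTH1 had 82.91 and 91.31 CPM in P against 169.9 and 136.1 in N, with no overlap, and fell by 0.81 ± 0.26 (adjusted p = 0.0411). FTL had 133.4 and 135.4 against 246.2 and 211.4 CPM, also without overlap, and its change of −0.77 ± 0.31 did not pass (adjusted p = 0.095). FTL passed with the replicate block (−0.78, adjusted p = 0.0411), with DESeq2 (−0.80, adjusted p = 0.0286) and in the fit to the compared libraries alone (−0.76, adjusted p = 0.00691), where SLC11A2 was lost. In T of the same cells the changes were 0.02 ± 0.26 and 0.03 ± 0.31. The FTH1 call was lost with the length offset (−0.65, adjusted p = 0.0729), and without any of 8 of the 16 libraries, for example the first N P library (−0.57, adjusted p = 0.254).

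Against H alone, HPP lowered both subunits in P of MDA-MB-231, FTH1 by 0.99 ± 0.26 (adjusted p = 0.0241) and FTL by 1.12 ± 0.31 (adjusted p = 0.0318). The 2 H libraries were far apart, with 111.7 and 235.4 CPM for FTH1 and 177.4 and 407.7 for FTL. Without the second H library the changes were −0.34 (adjusted p = 0.377) and −0.38 (adjusted p = 0.436). They also missed the threshold with the length offset (−0.75, adjusted p = 0.0669, and −0.70, adjusted p = 0.131) and in the fit to the compared libraries alone (−0.99, adjusted p = 0.0591, and −1.12, adjusted p = 0.0526).

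In MCF10A no ferritin comparison passed. FTH1 in T had 7652 and 17404 CPM under HPP and 5899 and 16362 under NPP, against 5651 and 6335 in N. The second library of each pair was the one with excess short mRNAs, and the first lay close to normoxia under NPP. FTL in T had 567.5 and 1269 CPM under HPP and 482.3 and 1694 under NPP. NCOA4, measured at 82.27 to 109.9 CPM in T of MCF10A and 179.8 to 249.7 in MDA-MB-231, was not called for any treatment by edgeR. Its HPP change was 0.34 ± 0.14 in T of MDA-MB-231 (adjusted p = 0.116), the largest of its changes in T of that line, and passed by DESeq2 (0.37, adjusted p = 0.0437). In P of that line its change for HPP against H was 0.38 ± 0.14 (adjusted p = 0.0958).

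**Figure D3:**
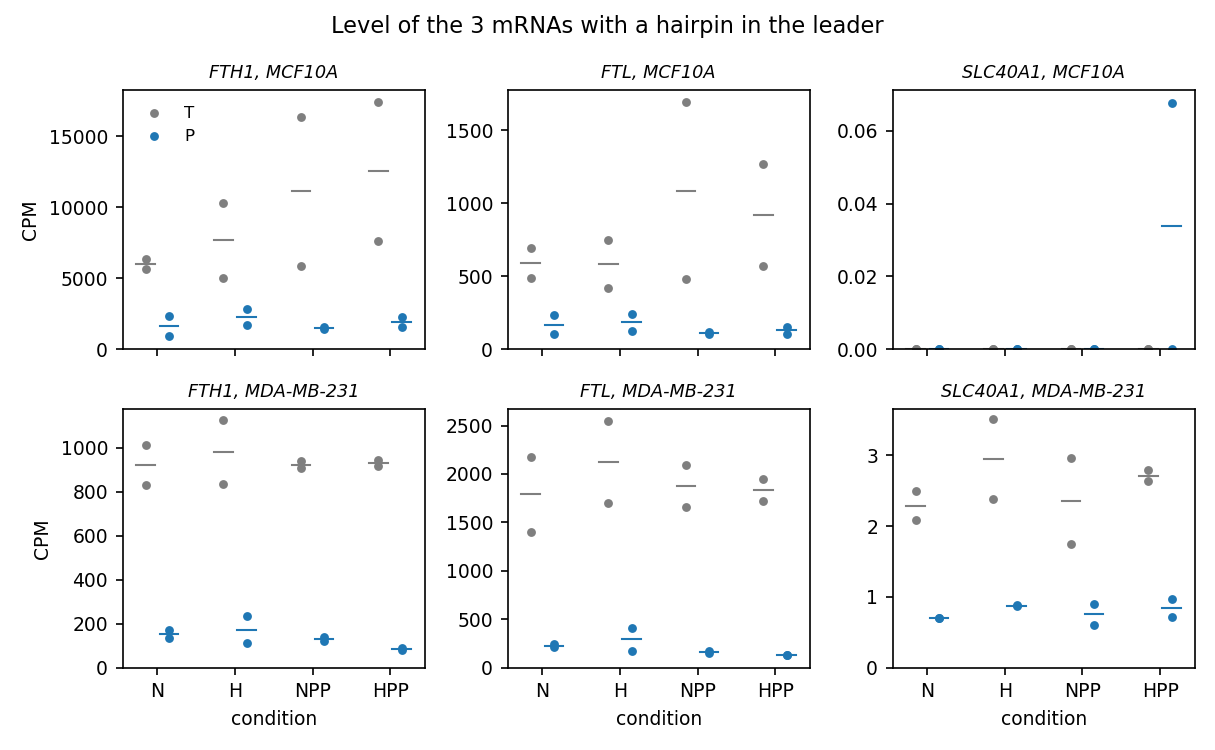
Level in CPM on a linear axis for FTH1, FTL and SLC40A1 in each condition, with T in grey and P in blue; points are libraries and bars the mean of 2. P lies below T in every condition for FTH1 and FTL in both lines and SLC40A1 in MDA-MB-231, the second NPP and HPP T libraries of MCF10A carry high ferritin, and SLC40A1 in MCF10A has 3 counts in 1 library and 0 in 15.

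TFRC, the transferrin receptor, fell in T of MCF10A and rose in P of MDA-MB-231 under HPP. In T of MCF10A it had 117.6 and 114.0 CPM in N, 57.53 and 53.06 in H, 92.85 and 27.76 in NPP, and 25.80 and 18.90 in HPP. The HPP libraries lay below all others, and the H libraries below N without overlap. The log2 fold change was −2.37 ± 0.63 under HPP (adjusted p = 0.0264) and −1.07 ± 0.61 under H (adjusted p = 0.623). In P of MCF10A the change under HPP was −1.36 ± 0.61 (adjusted p = 0.132), and it passed with the replicate block within the fraction (−1.27, adjusted p = 0.0428) and with the length offset (−1.48, adjusted p = 0.0209). The HPP call in T was lost without any 1 of the 4 libraries compared, with −2.16 to −2.52 and adjusted p of 0.0866 to 0.17, and held with the length offset (−2.25, adjusted p = 0.00336).

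In MDA-MB-231 the HPP libraries lay above the N libraries in both fractions. In T the H libraries (448.5 and 428.7 CPM) and the NPP libraries (403.8 and 372.7 CPM) also lay above N. In P the NPP libraries did so (434.2 and 460.3 CPM), while the H libraries overlapped N. The H change in T was 0.35 ± 0.15 (adjusted p = 0.366), and TFRC was called for neither H nor NPP there. In P TFRC had 307.5 and 421.9 CPM in N and 537.4 and 521.1 in HPP, and rose by 0.54 ± 0.15 (adjusted p = 0.0251). In T it had 348.4 and 341.8 in N and 506.2 and 425.6 in HPP, with 0.43 ± 0.15 (adjusted p = 0.0769), which passed with the replicate block within the fraction (0.43, adjusted p = 0.0366), with DESeq2 (0.46, adjusted p = 0.0197), with the length offset (0.45, adjusted p = 0.025), in the fit to the compared libraries alone (0.48, adjusted p = 0.0454) and with no filter (0.51, adjusted p = 0.0347). The call in P was lost without the first N P library (0.39, adjusted p = 0.152) or either HPP P library (0.51, adjusted p = 0.144, and 0.56, adjusted p = 0.0971). The difference between lines in the HPP effect on T was tested in a joint fit and was 2.90 ± 0.68 (adjusted p = 0.0186).

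SLC11A2, which brings ferrous iron across membranes, fell under HPP in MDA-MB-231. In T it had 25.69 and 23.93 CPM in N, 19.74 and 17.77 in H, and 16.64 and 16.65 in HPP, and fell by 0.58 ± 0.14 under HPP (adjusted p = 0.0153). In P it had 24.26 and 26.80 in N against 18.26 and 19.30 in HPP and fell by 0.44 ± 0.14 (adjusted p = 0.0373). NPP libraries overlapped N in both fractions. The P call is a narrow one, lost without any 1 of the 16 libraries (−0.37 to −0.49, adjusted p of 0.0502 to 0.213). It was also lost in the fit to the compared libraries alone (−0.44, adjusted p = 0.0679), with all gene classes (−0.43, adjusted p = 0.0603) and with no filter (−0.35, adjusted p = 0.265). The T call was lost without any of the 4 libraries compared (−0.51 to −0.63) and with no filter (−0.50, adjusted p = 0.0892). In MCF10A the HPP change in T was −0.83 ± 0.30 (adjusted p = 0.0851), and it passed with the replicate block within the fraction (−0.85, adjusted p = 0.02), with DESeq2 (−0.76, adjusted p = 0.0445) and with the length offset (−0.74, adjusted p = 0.012). In P it was −0.39 (adjusted p = 0.366), and passed with the length offset (−0.52, adjusted p = 0.0486).

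SLC40A1 did not pass the filter on low counts in MCF10A, where 15 of 16 libraries had 0 counts and the second HPP P library had 3. In MDA-MB-231 it had at least 44 counts in each T library and 16 to 33 in P. No treatment was called, and its changes under H, NPP and HPP lay between 0.05 and 0.36 with SEs of 0.31 to 0.37.

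**Figure D4:**
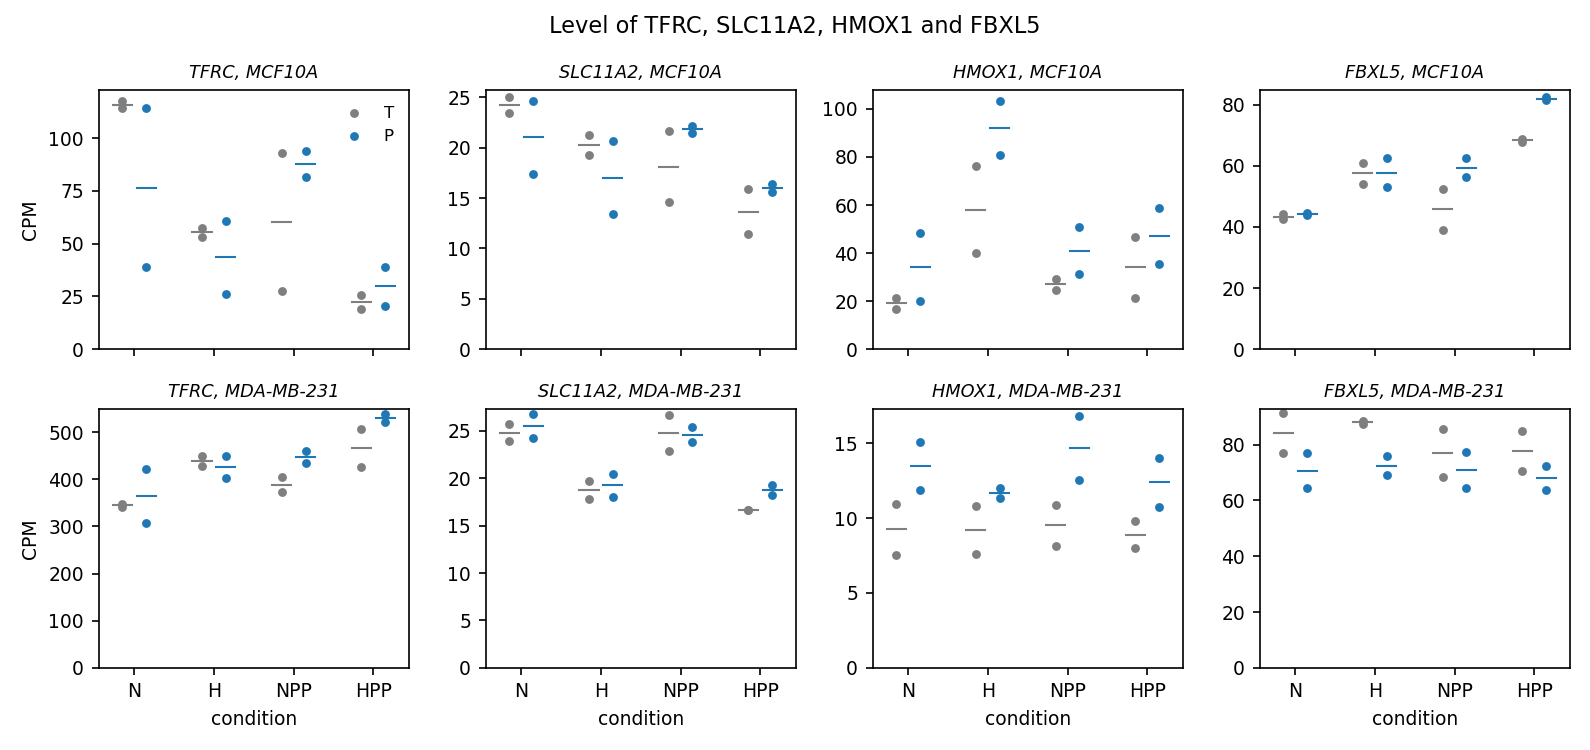
Level in CPM on linear axes that start at 0 for TFRC, SLC11A2, HMOX1 and FBXL5 in each condition, with T in grey and P in blue; points are libraries and bars the mean of 2. TFRC in MCF10A is lowest under HPP, at 25.80 and 18.90 CPM in T, and highest under HPP in P of MDA-MB-231, at 537.4 and 521.1 CPM.

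Among the regulators, FBXL5 was the only member called in MCF10A polysomes. It had 43.89 and 44.63 CPM in N, 53.06 and 62.49 in H, 62.46 and 56.27 in NPP, and 81.42 and 82.42 in HPP. Each treated group lay above N without overlap, and HPP above all others. It rose by 0.89 ± 0.21 under HPP in P (adjusted p = 0.011), and in T the change was 0.65 ± 0.21 (adjusted p = 0.0537), which passed with the replicate block within the fraction (0.65, adjusted p = 0.0341), with DESeq2 (0.73, adjusted p = 0.00267) and with the length offset (0.71, adjusted p = 0.00793). The P call was lost without the first N P library (0.94, adjusted p = 0.0706) or the second HPP P library (0.88, adjusted p = 0.0635), and in the fit to the compared libraries alone (0.96, adjusted p = 0.0729). In MDA-MB-231 the HPP change in P was −0.05 ± 0.16, and the difference between lines, −0.96 ± 0.28, did not pass (adjusted p = 0.056) but did with the replicate block (adjusted p = 0.0219) and DESeq2 (adjusted p = 0.00309).

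In the main edgeR fits, without a block or offset, the genes of both iron regulatory proteins were called for no treatment. ACO1, whose protein is cytosolic aconitase when it holds its iron-sulphur cluster, had 0.59 ± 0.27 under HPP in P of MCF10A (adjusted p = 0.134). Its change under NPP there was 0.73 ± 0.27 (adjusted p = 0.242). In P of MDA-MB-231 it had −0.37 ± 0.16 under H (adjusted p = 0.241). For HPP against H in P, ACO1 changed by 0.64 ± 0.27 in MCF10A (adjusted p = 0.194) and 0.42 ± 0.16 in MDA-MB-231 (adjusted p = 0.0955). IREB2 had changes against N between −0.31 and 0.26 in MDA-MB-231 with SEs of 0.17, and HPP against H in P there passed with the replicate block within the fraction (0.42, adjusted p = 0.0355). In MCF10A its SEs were 0.62 to 0.63, and its T libraries ran from 12.31 CPM, in the second NPP library, to 69.15.

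HMOX1, which frees iron from haem, was highest under H in MCF10A. In T it had 21.41 and 16.80 CPM in N, 40.12 and 76.15 in H, 24.75 and 29.27 in NPP, and 21.41 and 46.77 in HPP. In P it had 48.40 and 20.16 in N and 80.97 and 103.3 in H. The H libraries lay above N without overlap in both fractions. The changes of 1.61 ± 0.51 in T (adjusted p = 0.199) and 1.43 ± 0.50 in P (adjusted p = 0.24) did not pass. Fitted to the 4 libraries compared alone, HMOX1 passed in T under H (1.62, adjusted p = 0.0249), as did TFRC (−1.06, adjusted p = 0.0171), where 4.72% of genes did. In MDA-MB-231 HMOX1 stood at 7.53 to 10.97 CPM in T and its H change was −0.01 ± 0.25. The difference between lines was −1.59 ± 0.61 in T (adjusted p = 0.477).

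**Figure D5:**
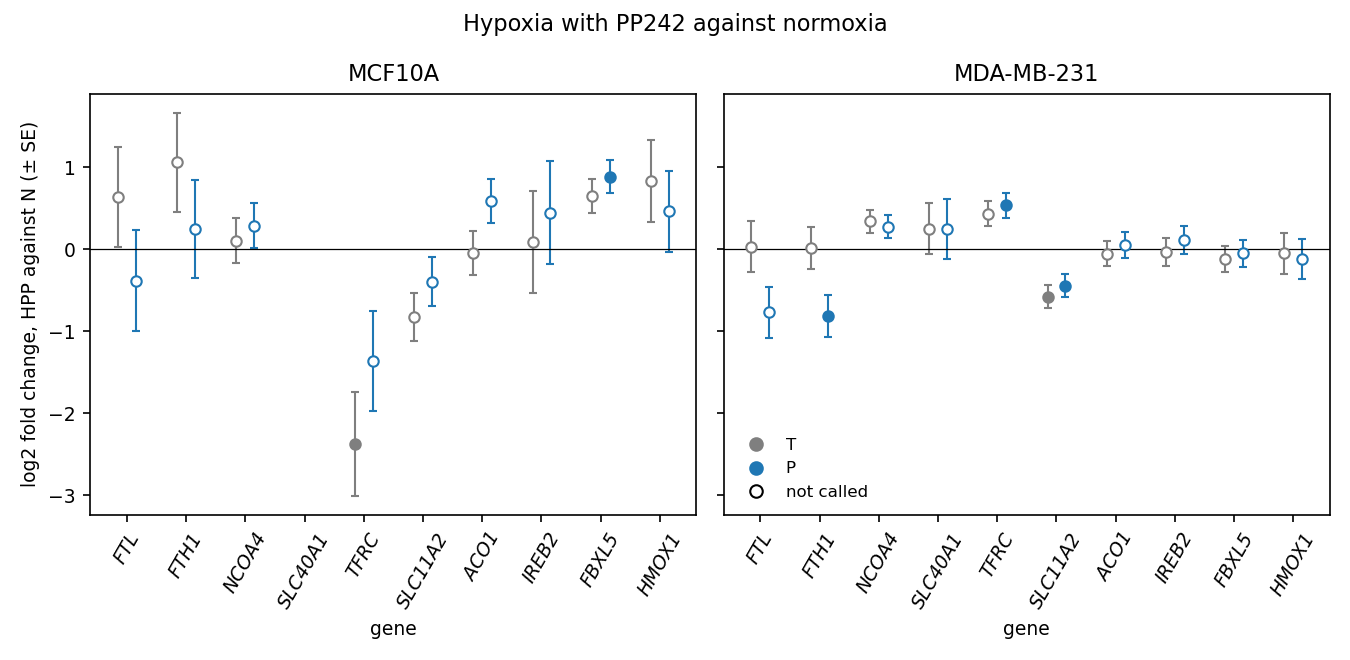
Log2 fold change of each member under HPP against N with its SE, in T (grey) and P (blue); filled points passed an adjusted p of 0.05 and open points did not, and SLC40A1 was not tested in MCF10A. TFRC lies at −2.37 in T of MCF10A and 0.54 in P of MDA-MB-231, and FTH1 at −0.81 in P of MDA-MB-231.

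The calls among members are set here beside the share of all genes called in the same comparison. In MCF10A, 0 of 9 were called for H in T (1.54% of all genes) and P (1.49%) and for NPP in T (0.648%) and P (0.823%). Under HPP 1 of 9 was called in T (14.9%) and 1 in P (22.2%), and for HPP against H 0 in T (3.74%) and 0 in P (6.5%). At an unadjusted p under 0.05, edgeR gave 1 member for H in T (10.9% of all genes) and 1 in P (12.5%), 0 for NPP in T (9.54%) and 1 in P (13.3%), and 0 for HPP against H in T (15.8%) and 2 in P (21%). In MDA-MB-231, 0 of 10 were called for H in T (1.27%) and P (2.29%) and for NPP in T (0.555%) and P (1.95%). Under HPP 1 was called in T (13.2%) and 3 in P (19.4%), and for HPP against H 0 in T (3.78%) and 2 in P (11.5%). Unadjusted, 2 members passed for H in T (12.7%) and 2 in P (17.2%), and none for NPP in T (10.3%) or P (13.6%) or for HPP against H in T (18.5%). For HPP against H in P of MDA-MB-231, 5 of 10 members passed unadjusted, against 3592 of 13510 genes. The other counts lie near the shares of all genes. DESeq2 called no member in any of these comparisons with a count of 0. The median HPP change of the members in P was 0.0018 in MDA-MB-231 and 0.29 in MCF10A, against 0.013 and −0.036 over all genes.

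Translation efficiency (Te), the change in P minus the change in T, was tested as an interaction. No member was called in MCF10A, where 0% of genes were for H, 0% for NPP and 0% for HPP. None was called in MDA-MB-231, where 0.0148%, 0.34% and 0.696% were. DESeq2 called none either. At an unadjusted p under 0.05 only FTH1 under HPP in MDA-MB-231 passed in the main edgeR fits. With DESeq2, a replicate or culture block, or no filter, 2 members passed there. For NPP, 1 member passed in MDA-MB-231 with no filter, and 3 in MCF10A with the replicate block within the fraction. In the main fits the shares of all genes at that level for H, NPP and HPP were 0.175%, 2.26% and 3.3% in the MCF10A line, and 1.33%, 2.18% and 3.36% in MDA-MB-231. Under HPP in that line the Te change of FTH1 was −0.83 ± 0.37 and that of FTL −0.80 ± 0.44 (adjusted p = 1 for both). In MCF10A the HPP values were −0.82 ± 0.85 and −1.02 ± 0.86 (adjusted p = 0.977 for both). For NPP, MCF10A had −1.02 ± 0.85 for FTH1 and −1.47 ± 0.87 for FTL. The other line had −0.21 ± 0.36 and −0.56 ± 0.43, and under H the values lay between 0.095 and 0.14 in both lines. With these errors a small change of Te in ferritin was not detectable. Larger ones, such as the −1.47 of FTL under NPP in MCF10A, were not called either. With the length offset no member had an unadjusted p under 0.05 under HPP in MDA-MB-231. A rule that asks for a z-score of the Te change beyond 1.5 over all genes and a called change in P also gave no member. FTH1 and FTL under HPP in MDA-MB-231 had z-scores of −1.34 and −1.30, and FTL under NPP in MCF10A had −1.79 without a called change in P (adjusted p = 0.766). By that rule 0.107% of all genes were called for H, 0.0305% for NPP and 2.6% for HPP in MCF10A. In MDA-MB-231 the shares were 0.0814%, 0.696% and 1.13%.

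Between the lines in normoxic T, 5 of 10 members were called, where 40.7% of all genes were. Levels here were scaled over all 32 libraries. Each line formed its own set of libraries, with its own series of barcodes, and had its own medium. Only the MCF10A medium held added EGF, hydrocortisone, cholera toxin and insulin. Line, library set and medium therefore cannot be told apart in any comparison between the lines. FTH1 had 6633 and 7488 CPM in MCF10A against 721.1 and 847.8 in MDA-MB-231, a log2 difference of −3.17 ± 0.53 (adjusted p = 4.88e-05). ACO1 had 35.32 and 37.39 against 113.9 and 138.4 and was higher in MDA-MB-231 by 1.79 ± 0.24 (adjusted p = 3.07e-06). HMOX1 was lower there by a difference of −1.52 ± 0.44 (adjusted p = 0.00802), and FBXL5 higher by 0.49 ± 0.20 (adjusted p = 0.0491). SLC40A1, at 0 counts in both normoxic T libraries of MCF10A, was at least 19.6-fold higher in MDA-MB-231, taking 3 counts per library as the limit that 0 allows and the lower of the MDA-MB-231 libraries.

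FTL and TFRC did not pass, at 1.13 ± 0.52 (adjusted p = 0.0909) and 1.11 ± 0.47 (adjusted p = 0.0665). With the length offset both did (1.30, adjusted p = 0.0025, and 0.95, adjusted p = 0.0238), and so did SLC11A2 (−0.58, adjusted p = 0.00302), while FBXL5 did not (0.34, adjusted p = 0.0909). DESeq2 called 7 members, TFRC among them (adjusted p = 0.0223). The FBXL5 call was lost in 27 of the 32 fits without 1 library, down to 0.32 (adjusted p = 0.341) without the first N T library of MDA-MB-231. HMOX1 was lost without the first N T library of either line (−1.35, adjusted p = 0.0529, and −1.31, adjusted p = 0.0832).

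The order of the ferritin chains also differed between the lines. Per kilobase of transcript, with CPM scaled within each line, FTH1 stood at 4982 and FTL at 679.2 CPM in normoxic T of MCF10A, and at 766.4 and 2057 in MDA-MB-231. In both lines the ferritin chains were the highest of the members on this scale.

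For treatment effects that differ between lines, TFRC under HPP in T was the 1 call among the 10 members and 6 comparisons. Of all genes, 0.266% were called for H in T, 0.056% for NPP in T, 3.31% for HPP in T, 0.329% for H in P, 0.126% for NPP in P and 3.6% for HPP in P. SLC40A1 could not be fitted usefully here, since MCF10A has almost no counts.

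Reads of ferritin pseudogenes did not move these values. The 25 FTH1 and 16 FTL pseudogene rows held at most 0.779% of the counts of gene and pseudogenes together in any library. Adding them to the gene changed no call. RSEM shares reads among near-identical copies, so the split itself is uncertain.

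By Pearson correlation of log2 CPM over the 16 libraries of a line, the gene most like FTH1 was FTL, with r = 0.983 in MCF10A and 0.996 in MDA-MB-231. BRI3 (0.982) and TMEM219 (0.980) followed in MCF10A, and UBE2D4 (0.995) and GTF3A (0.994) in MDA-MB-231. TFRC was most like MTRR (0.957), GINS4 (0.957) and ACACA (0.953) in MCF10A and RHPN2 (0.956), NEDD4 (0.934) and HRH1 (0.916) in MDA-MB-231. HMOX1 was most like GPRC5C (0.934), RRAGA (0.920) and ACOT1 (0.913), and in MDA-MB-231 GET4 (0.925), NUDT16L1 (0.913) and TSR2 (0.908). These are descriptions over libraries that share fractions, treatments and depth.

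The wider iron network was read through 5 further lists. Of all genes tested in P under HPP, 10.2% were called higher and 11.9% lower in MCF10A. The shares in MDA-MB-231 were 9.71% higher and 9.73% lower, and the counts of each list are to be read against them. Iron-sulphur cluster genes and mitochondrial iron carriers were called in P under HPP as lower in 4 of 18 tested genes in MCF10A and in 3 of 18 in MDA-MB-231, and as higher in none. LYRM4, which stabilises the sulphur donor of cluster assembly, fell in P by 2.03 ± 0.52 in MCF10A and 0.77 ± 0.18 in the other line (adjusted p = 0.0172 and 0.0093). SLC25A28, a mitochondrial iron importer, fell in P by 1.09 ± 0.34 and 0.64 ± 0.14 (adjusted p = 0.0407 and 0.00543). The list medians in P were −0.55 and −0.29, against −0.036 and 0.013 over all genes.

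Haem synthesis and handling had 2 of 13 genes called lower in P of MCF10A and 2 of 14 in MDA-MB-231 under HPP, and none higher, so the share called lower was near that of all genes. FLVCR1, a haem exporter, fell in T by 1.40 ± 0.43 in MCF10A and 0.86 ± 0.19 in the other line (adjusted p = 0.0497 and 0.00901). BLVRA, which reduces biliverdin, fell in P of MCF10A by 1.26 ± 0.40 (adjusted p = 0.0427) and changed by −0.44 ± 0.21 in MDA-MB-231 (adjusted p = 0.149).

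The NRF2 and BACH1 list, which holds partners and targets of the factors that control HMOX1, was mixed under HPP, with 4 higher and 1 lower of 14 in P of MCF10A and 3 higher and 3 lower of 14 in MDA-MB-231. MAFF, a small partner of both factors, rose in P by 2.57 ± 0.23 and 0.96 ± 0.18 (adjusted p = 8.75e-05 and 0.00266). BACH1, the haem-sensing repressor of HMOX1, rose in P by 2.33 ± 0.61 and 0.95 ± 0.28 (adjusted p = 0.0195 and 0.0292). OSGIN1 rose by 3.75 ± 0.47 in P of MCF10A (adjusted p = 0.000388) and changed by 0.33 ± 0.25 in MDA-MB-231 (adjusted p = 0.38).

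Of 18 other uptake, export and delivery genes, 11 were tested in MCF10A and 12 in MDA-MB-231. In P under HPP none rose and 3 fell in MCF10A, and 2 rose and 2 fell in MDA-MB-231. PCBP2, an iron chaperone, fell in P by 1.49 ± 0.26 and 0.67 ± 0.15 (adjusted p = 0.00265 and 0.00673), while its changes in T were 0.52 ± 0.26 and −0.01 ± 0.15 (adjusted p = 0.207 and 0.969). CUL1, the cullin that works with FBXL5, fell in P by 1.36 ± 0.22 and 0.58 ± 0.14 (adjusted p = 0.00164 and 0.0109) and fell in T by similar amounts. PCBP1 fell in P of MCF10A by 0.98 ± 0.32 (adjusted p = 0.0474) and changed by −0.15 ± 0.15 in MDA-MB-231 (adjusted p = 0.505). Of 6 other mRNAs known for an IRE, 5 were tested. PFN2 fell in P by 1.22 ± 0.30 and 0.77 ± 0.17 (adjusted p = 0.0151 and 0.00756), and in T of MDA-MB-231 by 0.63 ± 0.17 (adjusted p = 0.0293). CDC14A rose in MDA-MB-231 by 0.61 ± 0.20 in P and 0.69 ± 0.20 in T (adjusted p = 0.0469 and 0.0389). No gene of these 5 lists was called for Te under HPP in either line, where 0% and 0.696% of all genes were.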

How the data were processed

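Total and polysome-bound mRNA of MCF10A and MDA-MB-231 cells was sequenced as poly(A)-selected libraries, 32 in all. Per the study's methods and the submitters' processing notes, the authors mapped reads with STAR and obtained gene-level expected counts from RSEM. The deposited expected counts are whole numbers, not normalised, 1 column per library. The methods name GRCh38 and the processing notes GRCh37; the files hold no coordinates, and the hairpin positions come from GRCh38. No strand setting was stated, so antisense reads cannot be told apart.

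Protein-coding genes (97.4% to 99.2% of counts) were tested by edgeR 4.0.16 under R 4.3.3: filterByExpr, TMM scaling and the quasi-likelihood F test over the 16 libraries of a line in 8 groups, or all 32 libraries for the line comparisons. After filtering, 13124 genes were left in MCF10A (9 members), 13510 in MDA-MB-231 (10 members) and 14298 in the joint fit. Adjusted p is Benjamini-Hochberg over all tested genes, with a threshold of 0.05, and SE is that of the log2 fold change. Biological coefficients of variation came to 0.325 for MCF10A, 0.150 for MDA-MB-231 and 0.253 jointly, so changes in MCF10A were measured less precisely. The fits were tested on simulated data.

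The 10 members and the other lists were chosen with earlier results of these data known. From each further list, up to 3 called genes with the largest change under HPP are named, and for FTH1, TFRC and HMOX1 the 3 most correlated genes. Some genes that this rule names are not reported here. The low ferritin ratio of P to T was averaged over conditions, compared between lines and corrected for length after the data were seen. Correlations of replicate differences between conditions ran from 0.283 to 0.778 in T of MCF10A, where replicate numbers were taken to pair the libraries, from −0.100 to 0.635 in P, and from −0.187 to 0.347 within a fraction of MDA-MB-231. Alternatives were DESeq2 1.42.0, other filters and thresholds, replicate and culture blocks, pseudogene counts added, all gene classes, fits to the compared libraries alone, a z-score rule for Te, and leaving out each library.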

Additional observations from a re-analysis of the deposited data

Results flagged for a closer look

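The effect of HPP on TFRC in total mRNA differed between the lines, by 2.90 ± 0.68 on the log2 scale (adjusted p = 0.0186, edgeR joint fit), with −2.37 in MCF10A and 0.43 in MDA-MB-231. It was picked out because the difference itself was tested and passed. Line, library set and medium cannot be told apart in it. TFRC was lower in both HPP libraries than in both N libraries of MCF10A, and higher in both of MDA-MB-231. The call was lost without any of 6 of the 32 libraries, with the lowest value, 2.62 (adjusted p = 0.104), without the second HPP T library of MCF10A, which holds an excess of short mRNAs of 0.63. With the length offset the difference was 2.76 (adjusted p = 0.00134). Groups of 2 libraries were too small for a test of single outlying libraries.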

How the results depend on the processing

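Counts of members called moved with the processing more than their directions did, and no direction turned. In T of MCF10A the count of 1 over the treatment comparisons became 3 with an adjusted p under 0.10, with DESeq2, with the length offset, with the replicate block within a fraction and with fits to the compared libraries alone. In P of MCF10A 1 became 2 with the replicate block within a fraction, 3 with the length offset and 0 with the compared libraries alone. P against T in normoxic MCF10A gave 0, and 2 with the length offset or with conditions averaged. In T of MDA-MB-231 1 became 3 with DESeq2 and 2 with the looser threshold, the length offset, the replicate block within a fraction and the compared libraries alone. In P of MDA-MB-231 5 became 8 with the looser threshold, 7 with DESeq2 or the replicate block within a fraction, 6 with the replicate block, 4 with all gene classes, 3 with the compared libraries alone and 2 with the length offset. P against T in MDA-MB-231 went from 3 to 4 with each block and with conditions averaged. Between lines in normoxic T, 5 became 7 with the looser threshold, DESeq2 or the length offset, 6 with the replicate block and 4 with all gene classes or no filter. Treatment differences between lines went from 1 to 2 with the looser threshold or the replicate block, 3 with DESeq2 and 4 with the length offset. The causes were not tested. Without 1 library at a time the counts ran from 0 to 2 in T and 0 to 1 in P of MCF10A, 0 to 2 in T and 0 to 5 in P of MDA-MB-231, 2 to 3 for P against T in MDA-MB-231, 3 to 8 between lines in normoxia and 0 to 4 for treatment differences. Te stayed at 0 in both lines under the alternatives run, as did P against T in MCF10A without 1 library. A lone library was assumed to vary like the other groups.

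On the pairing of replicate numbers, all 6 pairs of conditions in T of MCF10A correlated over 0.1, but 3 of 6 in P, 4 of 6 in each fraction of MDA-MB-231, and 1 of 4 and 3 of 4 between T and P of a culture number. In T of MCF10A the balance of short over long mRNAs was also higher in the second library of each condition, for example 1.18 against −0.60 under NPP. Its part in these correlations was not tested, so the pairing there is an assumption. Under that assumption the replicate block within the fraction kept TFRC under HPP in T of MCF10A and added SLC11A2 and FBXL5. The length offset and the averaging over conditions were chosen after seeing the data. With a biological coefficient of variation of 0.325 and 2 libraries per group, small changes in MCF10A were not detectable. Some large ones were not called either, such as HMOX1 under H in T (3.04-fold) and FTH1 in normoxic P against T (3.66-fold lower).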
